A study of Rattus rattus with 8 samples.

Results

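The genes described here are the inhibitors of cyclin-dependent kinases (CDKs) and Mdm2, whose product restrains the tumour suppressor p53, in neonatal rat heart cells that had been cultured and sorted by DNA content into a diploid (2n) and a tetraploid (4n) fraction. They were chosen by name, from a list of 8 gene symbols, out of 30957 genes in the table. Of the 8, 7 were found and all 7 had enough counts to be tested: Cdkn1a, Cdkn1b, Cdkn1c, Cdkn2a, Cdkn2b, Cdkn2c and Mdm2. Cdkn2d was not analysed here.

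Messenger RNA was sequenced from 8 libraries, 4 of 2n cells and 4 of 4n cells, all of strain SD and from pups 1 to 3 days after birth. Every library had the same history: cardiomyocytes enriched by differential adherence were kept for 24 h with 0.2 mM AraC (a nucleoside analogue that blocks DNA synthesis) and a supplement of insulin, transferrin and selenium, deprived of serum and then held at 1% oxygen for 48 h before the sort on a Hoechst DNA dye at 2 µg/mL. No library came from cells kept at normal oxygen, with serum or without AraC, so neither hypoxia nor AraC can be compared here. A 4n signal in such a sort is given by a tetraploid nucleus, by 2 diploid nuclei in a cell, by a cell in G2 or M phase, and by 2 adhering diploid cells, and the labels do not separate these.

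The libraries held between 14783521 and 21033772 counts. Replicate numbers 1 to 4 are shared by the groups, libraries of the same number deviated together, and the libraries of a number are called a culture below. A culture number also stands for whatever else its libraries shared, such as handling or library preparation, which cannot be told apart from the cells. Although the cells are labelled cardiomyocytes, 11 cardiomyocyte markers took 0.0540% to 0.107% of the counts in 2n and 0.457% to 2.49% in 4n, against 4.77% to 6.17% and 2.44% to 5.44% for 9 fibroblast markers. In bulk RNA, fewer cells of a type and less RNA per cell cannot be told apart. The mitochondrial chromosome took 2.87% to 3.82% of the counts in 2n, 3.71% in the 4n library of culture 1 and 24.1% to 25.9% in the other 3 libraries of 4n.

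CDK inhibitors stop the cell cycle by binding CDKs or their complexes with cyclins. The Cip/Kip proteins, made from Cdkn1a (p21), Cdkn1b (p27) and Cdkn1c (p57), bind cyclin-CDK complexes of several kinds, whereas the INK4 proteins, made from Cdkn2a (p16), Cdkn2b (p15) and Cdkn2c (p18), bind CDK4 and CDK6 and keep them from D-type cyclins. Cdkn1a and Mdm2 are both classical targets of p53, and Mdm2 is a ubiquitin ligase that marks p53 for degradation, so that it closes a feedback loop. In the heart, CDK inhibitors are known for their part in the withdrawal of cardiomyocytes from the cell cycle around birth.

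The genes lie, in the build Rnor_6.0, on chromosome 20 from 6351458 to 6358864 (Cdkn1a, ENSRNOG00000000521), on chromosome 4 from 168689163 to 168693964 (Cdkn1b, ENSRNOG00000007249) and on chromosome 1 from 216661080 to 216663721 (Cdkn1c, ENSRNOG00000059500). Cdkn2a (ENSRNOG00000059837) and Cdkn2b (ENSRNOG00000006735) are neighbours on chromosome 5, from 107823330 to 107841175 and from 107845951 to 107858104, with 4775 bases between them. Cdkn2c (ENSRNOG00000008956) lies on the same chromosome from 129347732 to 129352886, and Mdm2 (ENSRNOG00000006304) on chromosome 7 from 60719066 to 60743328. The Cdkn2a row gathers the transcripts of p16 and of the alternative product ARF, which binds Mdm2, and the counts do not separate them. The strand setting of the counting is not given, so reads of a partner on the opposite strand would be counted too.

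Cdkn1a, Cdkn1b and Mdm2 formed an abundant class and the other 4 genes a scarce one. On the scale of FPKM, which divides counts by gene length and library size, Cdkn1a stood at 37.0 ± 17.4 in 2n and 42.3 ± 25.1 in 4n, Cdkn1b at 32.7 ± 16.2 and 31.97 ± 11.5, and Mdm2 at 26.96 ± 13.6 and 23.5 ± 11.4 (SD, n = 4 each). The 4 scarce genes were at 1.44 to 4.01 FPKM in group means. FPKM are not adjusted for the differing mitochondrial shares of the libraries, so these means are not used to compare the fractions. The lowest FPKM among the abundant genes in any library was 14.2 (Mdm2, 4n of culture 2) and the highest among the scarce genes was 5.24 (Cdkn2c, 4n of culture 4), so the classes did not overlap.

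Within each class the order of the levels was firm only in part. In 2n the order of the scarce genes by mean FPKM was Cdkn2b (3.17 ± 1.35), Cdkn2c (2.67 ± 0.308), Cdkn1c (2.06 ± 0.593) and Cdkn2a (1.85 ± 0.374), and in 4n it was Cdkn2c (4.01 ± 1.18), Cdkn1c (2.55 ± 0.939), Cdkn2b (2.08 ± 1.87) and Cdkn2a (1.44 ± 0.676) (SD, n = 4 each). For every pair of neighbours in these orders, and in those of the 3 abundant genes, the ranges over the 4 libraries of a fraction overlapped. Among the genes tested, Cdkn1a, Cdkn1b and Mdm2 were at the 86.8th, 83.8th and 79.4th percentile of mean FPKM, and Cdkn2a was at the 15.9th.

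**Figure D1:**
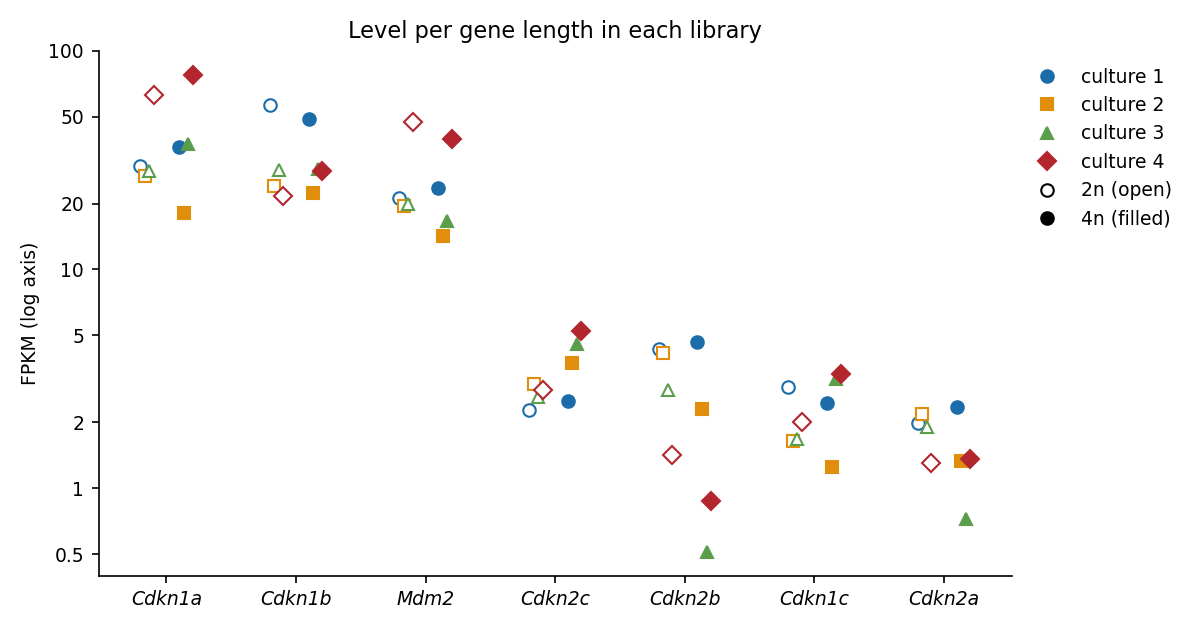
FPKM of the 7 genes (log axis) in each of the 8 libraries, with colour and shape for the culture, open symbols for 2n and filled ones for 4n. Cdkn1a, Cdkn1b and Mdm2 lie at 14.2 or above in every library, and the other 4 genes at 5.24 or below.

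The first comparison asked whether the inhibitors and Mdm2 differed between 4n and 2n cells. None of the 7 passed the test: 0 rose and 0 fell at an adjusted p under 0.05 (quasi-likelihood test of edgeR, adjustment by Benjamini and Hochberg over 12983 genes), where 2.67% of all genes tested were called higher and 0.0077% lower in 4n. With the libraries paired by culture, again 0 of 7 were called, against 4.27% of genes higher and 0.608% lower. Cdkn2c was the 1 gene of the 7 with an unadjusted p under 0.05, in the fit with pairing and in that without. DESeq2 and limma-voom also called 0 of 7, with 1 and 0 of them at an unadjusted p under 0.05. Over all genes, DESeq2 called 860 higher and 93 lower in 4n, and limma-voom 0 and 0. In the plot of levels by library, the 2n and 4n values of every gene overlap.

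Cdkn2c came closest to a difference and was the only gene higher in 4n in 4 of 4 cultures. In CPM, which is counts relative to the TMM-scaled library size, its 2n values were 2.93, 3.91, 3.50 and 3.74 for cultures 1 to 4, and its 4n values 3.22, 6.17, 7.87 and 8.40. The 4n library of culture 1 lay within the range of 2n, and the other 3 lay above all 2n libraries. The log2 fold change was 0.86 ± 0.30 (SE; a fold of 1.82, 95% interval 1.14 to 2.90; edgeR adjusted p = 0.186), and paired by culture 0.80 ± 0.23 (1.74-fold, interval 1.21 to 2.51; edgeR adjusted p = 0.0739). These values rest on 48 to 115 counts per library. Without the 4n library of culture 1, the log2 fold change was 1.08 and passed (edgeR adjusted p = 0.0194). That library is also the 4n library with the low mitochondrial share. Paired by culture without culture 1, the value passed as well, at 0.98 (edgeR adjusted p = 0.0253). Calls over all genes rose too, to 870 higher and 90 lower in the unpaired fit, against 347 and 1 with all libraries. In the paired fit they were 1254 and 399, against 554 and 79. The cardiomyocyte markers were also higher in 4n in each culture, at 0.457%, 0.676%, 2.49% and 0.974% of counts for cultures 1 to 4, and their part in the Cdkn2c values was not tested.

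For Mdm2 the paired data held the difference within narrow bounds. Its CPM were 81.2, 75.3, 78.7 and 186 in 2n and 90.3, 69.7, 85.5 and 187 in 4n, so that the libraries of a culture lay close together whatever their fraction. Paired by culture, the log2 fold change was 0.04 ± 0.09 (SE, edgeR adjusted p = 0.777), with a 95% interval from a fold of 0.893 to one of 1.19. Without pairing the interval was wider, 0.561 to 1.88. Under scaling by total counts, which moves the median of all genes to -0.25 on the log2 scale, the unpaired Mdm2 value was -0.20, near that shift.

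Cdkn1a had 72.3, 65.5, 71.1 and 157 CPM in 2n and 87.2, 56.5, 121 and 234 in 4n. It was higher in 4n in 3 of 4 cultures, and lower in culture 2. The log2 fold change was 0.44 ± 0.44 (SE, edgeR adjusted p = 0.647), and paired by culture 0.35 ± 0.16 (a fold of 1.28, interval 0.989 to 1.65; edgeR adjusted p = 0.180). Without the 4n library of culture 4 the unpaired value was -0.05, a fit that keeps the high 2n library of the same culture. Paired by culture, the value was 0.22 to 0.54 with any culture left out.

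Cdkn1b had 89.7, 38.5, 46.8 and 35.3 CPM in 2n and 76.8, 45.6, 60.8 and 55.2 in 4n. It was higher in 4n in 3 cultures and lower in culture 1. The paired log2 fold change was 0.26 ± 0.14 (SE; a fold of 1.196, interval 0.952 to 1.503; edgeR adjusted p = 0.259). Under scaling by total counts the unpaired value changed from 0.18 to -0.03.

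Cdkn1c, an imprinted gene expressed from the maternal allele, split the cultures. Its CPM in 2n were 8.11, 4.64, 4.82 and 5.77, and in 4n 6.82, 4.46, 11.7 and 11.5. The 4n library was the higher one by 2.43-fold and 1.99-fold in cultures 3 and 4, and was at 0.841 and 0.961 of the 2n level in cultures 1 and 2. Over all 4 cultures the paired fold was 1.42 (interval 0.895 to 2.24; edgeR adjusted p = 0.271), on 60 to 164 counts per library. Whether the cultures differed in this fold could not be tested with 1 library of each fraction per culture.

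The neighbours Cdkn2a and Cdkn2b both had their lowest value in the 4n library of culture 3. Cdkn2b had 22.9, 22.3, 15.5 and 7.76 CPM in 2n and 24.6, 15.7, 3.65 and 5.77 in 4n, with a paired log2 fold change of -0.66 ± 0.35 (SE; a fold of 0.631, interval 0.351 to 1.13; edgeR adjusted p = 0.252). It was lower in 4n in 3 of 4 cultures, and in culture 3 the 4n level was 0.236 of the 2n level. The paired value was -0.26 without culture 3 and -0.98 without culture 1. Cdkn2a had 2.4999, 2.78, 2.49 and 1.70 CPM in 2n and 2.95, 2.16, 1.22 and 2.12 in 4n, with a paired fold of 0.878 (interval 0.542 to 1.42; edgeR adjusted p = 0.703). Its counts were 17 to 64 per library, and the lowest, 17, has an exact Poisson 95% interval of 9.90 to 27.2, which covers counting error only. Without the 4n library of culture 3 the unpaired log2 fold change of Cdkn2a turned from -0.16 to 0.03. The 4n library of culture 3 also held the largest share of cardiomyocyte markers and the smallest share of fibroblast markers, 2.44%, and the part of these in the Cdkn2a and Cdkn2b values was not tested.

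**Figure D2:**
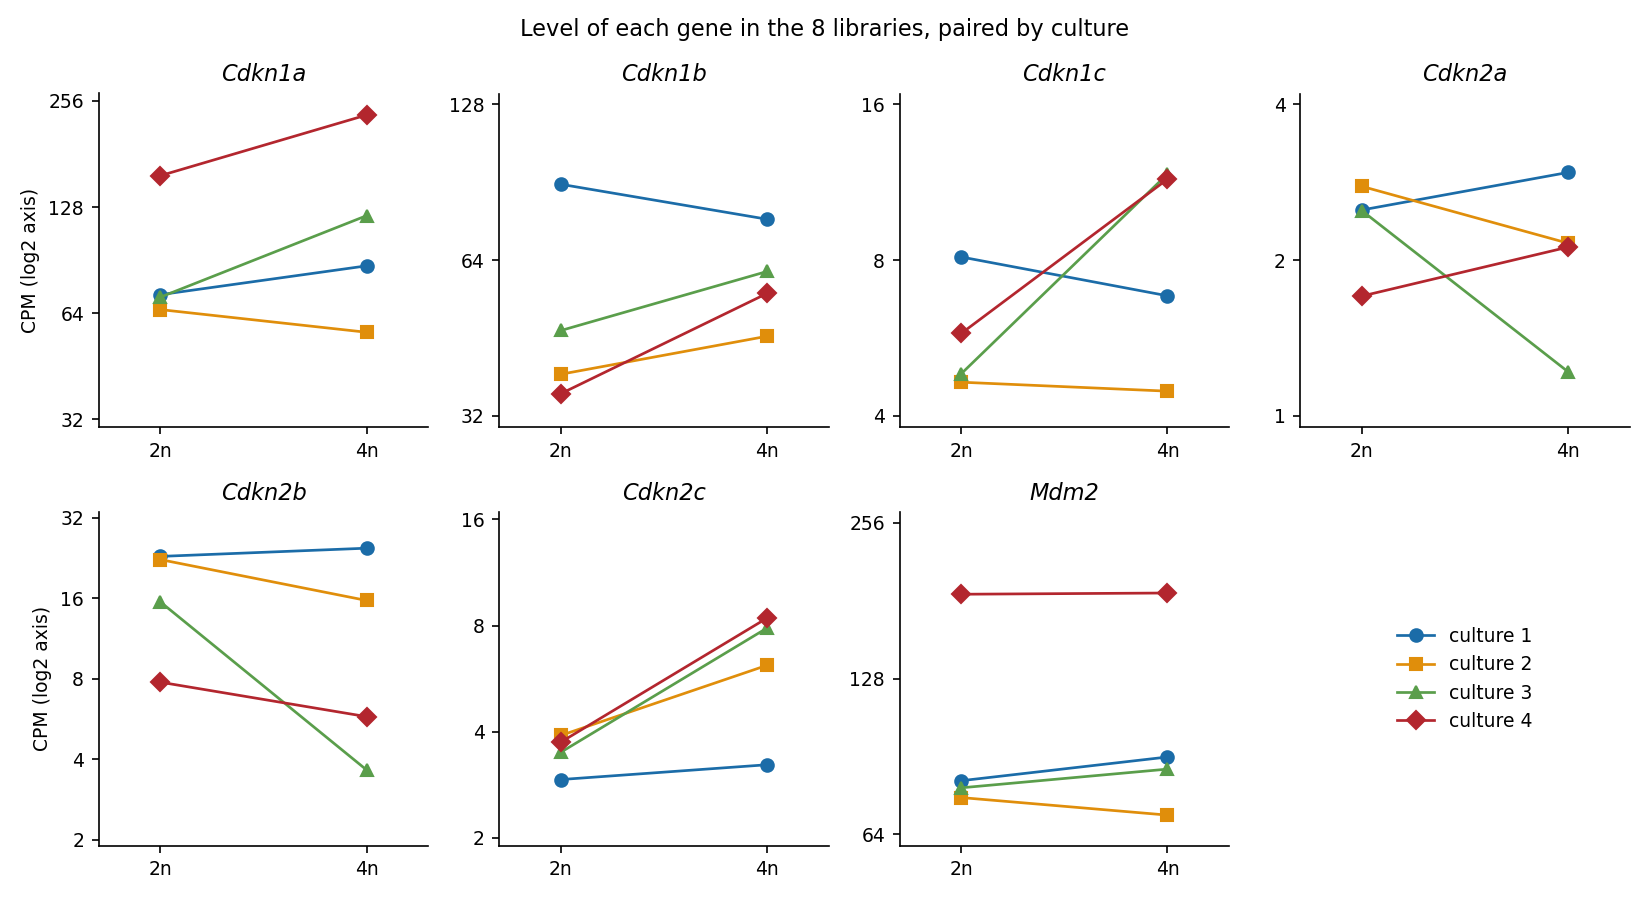
CPM of each gene (log2 axis, a separate range for each panel) in 2n and 4n, with a line joining the libraries of a culture. Culture 4 lies above the others for Cdkn1a and Mdm2 in both fractions, culture 1 lies highest for Cdkn1b, and each Cdkn2c line runs upwards to 4n.

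**Figure D3:**
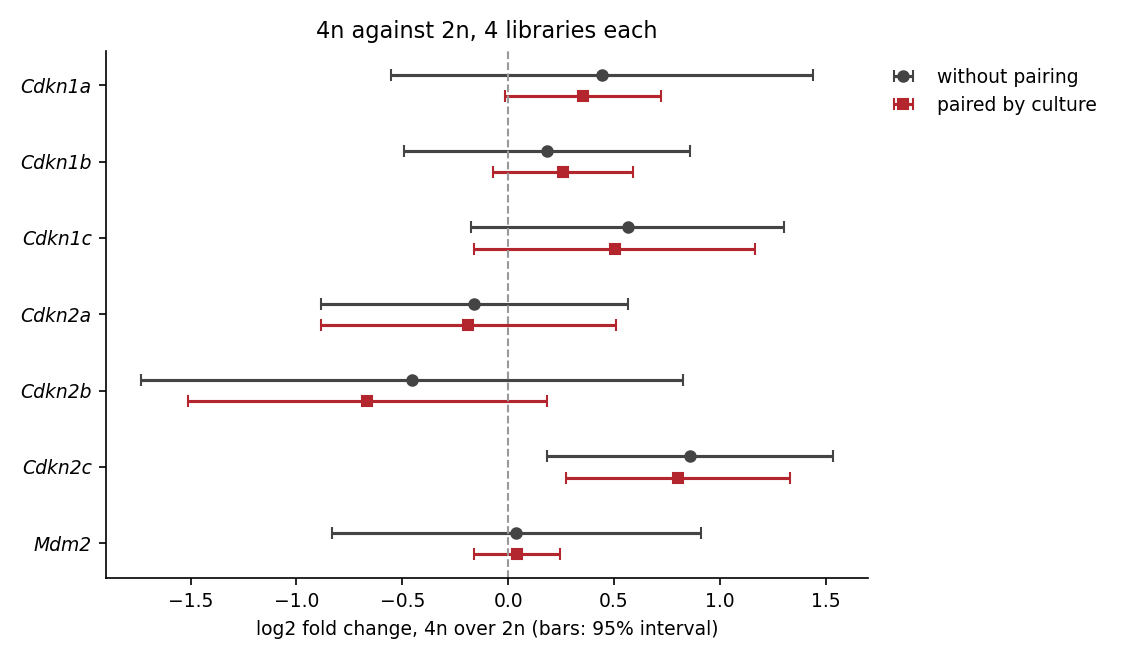
Log2 fold change of 4n over 2n for each gene, with 95% intervals from the edgeR fit without pairing (grey circles) and paired by culture (red squares), 4 libraries a group. The Cdkn2c intervals lie above 0 before adjustment over all genes, and pairing narrows the interval of Mdm2 to between -0.16 and 0.25.

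The next comparison was between the cultures, over both fractions, and here 3 of the 7 genes passed: Mdm2 (edgeR adjusted p = 0.00341), Cdkn1a (0.0184) and Cdkn1b (0.0472). Of all genes tested, 8.21% were called in the same F test, which had the fraction as a term. The 2n and 4n libraries of a culture served as its replicates in this test, as no culture was repeated within a fraction. The log2 range from the lowest to the highest culture was 1.36 for Mdm2, 1.63 for Cdkn1a and 1.01 for Cdkn1b, beside a median of 0.54 over all genes tested. Cdkn2b had the widest range, 1.88, and did not pass in edgeR (adjusted p = 0.117), nor did Cdkn2c (0.87, adjusted p = 0.254), Cdkn1c (0.82, adjusted p = 0.392) and Cdkn2a (0.57, adjusted p = 0.603). DESeq2 called 4 of the 7, Cdkn2b being added (adjusted p = 0.00104), while limma-voom called 2, Cdkn1b being lost (adjusted p = 0.0543). Of the 12983 genes, DESeq2 called 2436 among cultures and limma-voom 1173, against 1066 in edgeR.

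Mdm2 and Cdkn1a were both highest in culture 4. Mdm2 was 2.18-fold higher in culture 4 than in culture 1 (log2 difference 1.12 ± 0.13 SE, edgeR adjusted p = 0.0110), 2.57-fold higher than in culture 2 (1.36 ± 0.13, edgeR adjusted p = 0.00194) and 2.28-fold higher than in culture 3 (1.19 ± 0.13, edgeR adjusted p = 0.00790). The other 3 cultures were within 1.18-fold of each other, and none of these pairs passed. Cdkn1a was 2.42-fold higher in culture 4 than in culture 1 (1.28 ± 0.22, edgeR adjusted p = 0.0365) and 3.09-fold higher than in culture 2 (1.63 ± 0.23, edgeR adjusted p = 0.0112). Its 2.05-fold difference from culture 3 did not pass in edgeR (1.04 ± 0.22, adjusted p = 0.0694) and did with DESeq2 (adjusted p = 0.00194). Over all genes, culture 4 against cultures 1, 2 and 3 called 3.54%, 4.58% and 2.15% of those tested. Without culture 4, 0 of the 7 genes and 64 genes in all were called among the remaining cultures, with 1 of the 7 at an unadjusted p under 0.05.

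Cdkn1b was highest in another culture, culture 1, at 89.7 and 76.8 CPM in 2n and 4n, and no library of another culture exceeded 60.8. It was 2.01-fold higher in culture 1 than in culture 2 (log2 difference 1.01 ± 0.20 SE, edgeR adjusted p = 0.0328), a pair of cultures with 6.31% of all genes called. The differences from cultures 3 and 4, 1.58-fold and 1.89-fold, did not pass in edgeR (adjusted p = 0.0904 and 0.0528) and did with DESeq2 (adjusted p = 0.0451 and 0.00328). Culture 1 against culture 3 called 4.1% of all genes and culture 2 against culture 3 called 0.809%, with 0 of the 7 genes in either. Cdkn1b was not called among the cultures when culture 1, 2 or 4 was left out (edgeR adjusted p = 0.441, 0.136 and 0.109). Over all genes, 676, 224 and 64 were called in these fits, against 1066 with all cultures.

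The makeup of the Cip/Kip class differed between cultures. Cdkn1a made up 33.4% and 41.4% of the summed Cip/Kip FPKM in the 2n and 4n libraries of culture 1, 51.0% and 43.4% in culture 2, 48.4% and 54.0% in culture 3, and 72.7% and 71.2% in culture 4. The ratio of Cdkn1a to Cdkn1b in FPKM ran from 0.527 in the 2n library of culture 1 to 2.91 in that of culture 4. The summed FPKM of cultures 1 and 4 were alike in 2n, at 89.5 and 86.6, while in 4n they were 87.3 and 109, and the sums of the other libraries were 41.9 to 69.1. FPKM are divided by the library total, of which the mitochondrial chromosome took 3.71% in the 4n library of culture 1. In the 4n library of culture 4 it took 24.1%. The sums are not corrected for this, whereas shares and ratios within a library do not depend on the total. All are given as values, with no test.

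None of the 3 INK4 genes passed among cultures in edgeR. The means of Cdkn2a and Cdkn2b were both highest in culture 1 and next highest in culture 2, unlike those of Cdkn2c. Over the 8 libraries, log2 CPM of Cdkn2a and Cdkn2b correlated at r = 0.90. Cdkn2c correlated at -0.63 with Cdkn2a and at -0.78 with Cdkn2b, values given as a description with no test. Cdkn2c was lowest in culture 1, at 3.07 CPM, and highest in culture 4, at 6.07 CPM, and Cdkn2a ran from 1.85 CPM in culture 3 to 2.73 CPM in culture 1. Cdkn2b stood at 22.9 and 24.6 CPM in culture 1 and at 7.76 and 5.77 CPM in culture 4, the 2n and 4n libraries lying near each other, but in culture 3 its fractions were 15.5 and 3.65 CPM. Among cultures its unadjusted p was 0.0249. When culture 3 was left out, it passed, with a log2 range of 1.84 (edgeR adjusted p = 0.00192). In that fit 2520 of 13019 genes were called, against 1066 of 12983 with all cultures. The ratio of Cdkn2b to Cdkn2a in FPKM was 2.17 and 1.97 in the 2n and 4n libraries of culture 1 and 1.08 and 0.645 in those of culture 4.

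The other genes known as p53 targets were described from a list of 30 that left out Cdkn1a and Mdm2, of which 27 were tested. Among cultures, 7 of the 27 passed, or 25.9%, beside 8.21% of all genes tested. Of the 27, 17 had their highest mean in culture 4, which is 63.0%, beside 22.0% of all genes tested, and 2 had their lowest there. These genes were counted and not tested as a group, and genes of a list are not independent of each other. The median log2 range among cultures was 0.70 for the list and 0.54 for all genes tested.

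The 7 genes that passed did not share an order of cultures: 4 were highest in culture 4, 2 in culture 1 and 1 in culture 2. Btg2, an antiproliferative gene, averaged 95.9, 66.3, 102 and 193 CPM in cultures 1 to 4 (edgeR adjusted p = 0.0156), and the receptor tyrosine kinase gene Epha2 55.2, 40.6, 34.2 and 57.04 (edgeR adjusted p = 0.0259). Ddit4, an inhibitor of mTORC1 that hypoxia and other stresses also induce, averaged 105, 24.7, 25.6 and 31.7 CPM (edgeR adjusted p = 0.00266), and was thus highest in culture 1. So was Phlda3, an inhibitor of Akt, at 198, 127, 120 and 162 (edgeR adjusted p = 0.0334).

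**Figure D4:**
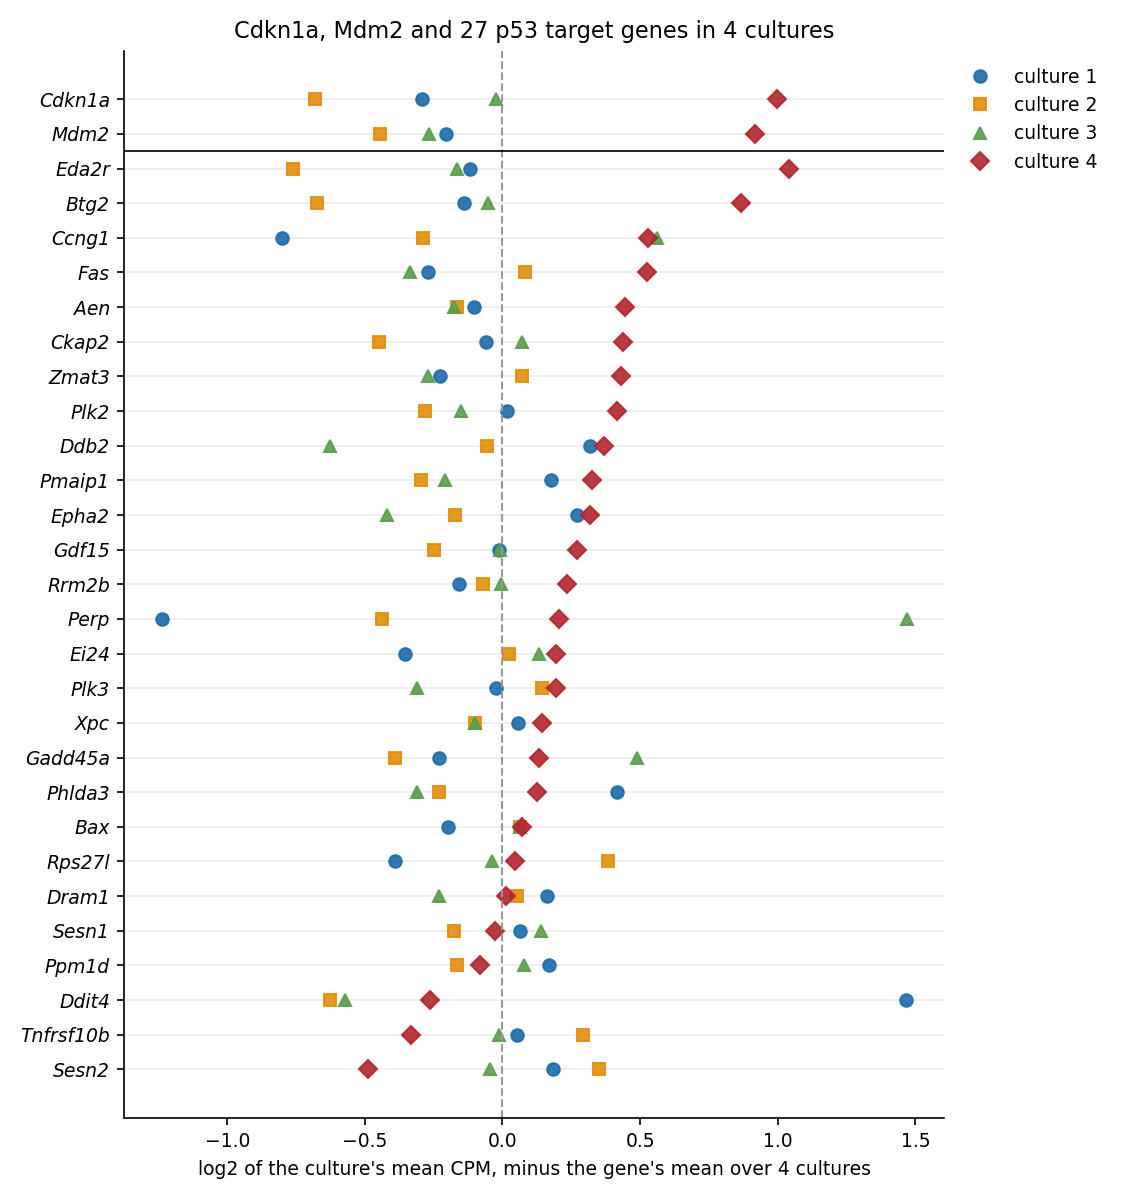
Log2 of the mean CPM of each culture (n = 2 libraries), minus the mean of the gene over the 4 cultures, for Cdkn1a and Mdm2 (above the line) and the 27 tested p53 targets of the list, sorted by the value of culture 4. Culture 4 (red diamonds) stands apart to the right for Cdkn1a, Mdm2, Btg2 and Eda2r, while Ddit4 has its highest value in culture 1 (blue circles). Eda2r, at 14.4 CPM in culture 4 and 4.11 to 6.43 in the others, did not pass among cultures (edgeR adjusted p = 0.0585).

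Between fractions, 1 of the 27 targets rose in 4n and 0 fell, a share near the 2.67% of all genes called higher. It was Perp, a gene of a membrane protein of cell junctions that is also needed in p53-dependent cell death, higher by 4.00 ± 0.60 (SE) on the log2 scale (edgeR adjusted p = 0.0252). Gadd45a, which acts in growth arrest after DNA damage, came next and did not pass (0.85 ± 0.27, edgeR adjusted p = 0.149). The median of the list was -0.01, beside -0.01 over all genes tested. Perp was highest in the 4n library of culture 3, at 78.6 CPM, where the cardiomyocyte markers were also highest, and their part in its values was not tested. Paired by culture, 3 of the 27 rose, where 4.27% of all genes did. They were Perp (3.69, edgeR adjusted p = 0.0245), Btg2 (0.87, edgeR adjusted p = 0.0275) and Rps27l (0.46, edgeR adjusted p = 0.0449).

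Of 14 tested partners and regulators of Mdm2, 0 passed between fractions, where 2.67% of all genes were called higher and 0.0077% lower in 4n. Among cultures 1 passed, or 7.14%, a share near the 8.21% of all genes tested. This was the ribosomal protein gene Rps7, whose product binds Mdm2. It averaged 56.2 CPM in culture 1 and 28.6 to 32.8 in the others (edgeR adjusted p = 0.0183). The ribosomal protein genes Rpl5, Rpl11 and Rpl23 of the same list averaged 419 to 833 CPM in the cultures. Whether the Rps7 values cover all transcripts of that gene was not tested. The smallest p between fractions were those of Nvl, at -0.51 on the log2 scale (edgeR adjusted p = 0.0990), and of Usp2, a deubiquitinase of Mdm2, at 0.79 (edgeR adjusted p = 0.150). Mdm4, the p53-binding relative of Mdm2, named here for its role after its values were seen, averaged 42.3, 35.6, 30.9 and 31.7 CPM in cultures 1 to 4 and did not pass (edgeR adjusted p = 0.200), so its values did not share the high level of Mdm2 in culture 4.

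The genes of the proteins that CDK inhibitors act on, and those of the ligases that degrade the inhibitors, showed no calls. Of all genes tested, 8.21% were called among cultures, and 2.67% were called higher and 0.0077% lower in 4n. Lists as short as these would hold few calls at such shares. Of 11 tested CDK and cyclin genes, 0 passed in either comparison. Their medians were 0.08 for the log2 fold change between fractions and 0.48 for the range among cultures. Ccnb1, at 0.87 on the log2 scale (edgeR adjusted p = 0.0570), and Cdk2, at 0.49 (edgeR adjusted p = 0.205), came closest between fractions, and Ccne1 and Ccne2 among cultures (edgeR adjusted p = 0.0581 for both). Of 13 genes of the RB family and the E2F factors, which lie downstream of the CDKs, 0 passed in either comparison, and E2f5 (-0.38 on the log2 scale, edgeR adjusted p = 0.320) and Rbl2 (-0.27, edgeR adjusted p = 0.397) came closest between fractions. Among 15 subunits of ubiquitin ligases, 0 passed too, with Skp1 closest among cultures (edgeR adjusted p = 0.0501) and Cul4b between fractions (-0.34, edgeR adjusted p = 0.130).

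Of 19 tested transcription factors known to act on the Cdkn1 genes, 5 passed among cultures, or 26.3% beside 8.21% of all genes tested. Between fractions 0 passed, where 2.67% of all genes were called higher and 0.0077% lower in 4n. Foxo3, a forkhead factor that can induce Cdkn1b, averaged 54.9 CPM in culture 1 and 16.6, 25.6 and 27.6 in cultures 2 to 4 (edgeR adjusted p = 0.00559). Myc, a growth-promoting factor that can repress Cdkn1a, was also highest in culture 1, at 173 CPM against 72.2 to 84.9 in the others (edgeR adjusted p = 0.0136). Hes1, a repressor in the Notch pathway, was lowest in culture 1, at 42.2 CPM, and highest in culture 4, at 93.6 (edgeR adjusted p = 0.0224). Smad3, a mediator of TGF-beta signals, averaged 102 CPM in culture 1 and 53.9 to 76.7 in the others (edgeR adjusted p = 0.0360).

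Among 23 polycomb genes and other regulators of the locus of Cdkn2a and Cdkn2b, 3 passed among cultures, or 13.0% beside 8.21% of all genes tested. Between fractions 0 passed, where 2.67% of all genes were called higher and 0.0077% lower in 4n. Id1, which can repress Cdkn2a, averaged 34.7 CPM in culture 1 and 79.8, 92.4 and 117 in cultures 2 to 4 (edgeR adjusted p = 0.00560). Kdm6b, a demethylase that removes the polycomb mark, was highest in culture 1, at 139 CPM against 65.2 to 83.1 (edgeR adjusted p = 0.0127). The polycomb gene Cbx7 was low throughout, at 0.183 to 2.90 CPM in culture means (edgeR adjusted p = 0.0475). Of 20 tested imprinted genes, the class to which Cdkn1c belongs, 2 rose in 4n, where 2.67% of all genes did: Asb4 (4.04 ± 0.74 SE, edgeR adjusted p = 0.0285) and Kcnq1, a potassium channel of heart muscle (3.75 ± 0.68, edgeR adjusted p = 0.0285; 0.0526 paired by culture). Both were highest in the 4n library of culture 3, as the cardiomyocyte markers were, whose part in these values was not tested. Paired by culture, 4.27% of all genes rose and 0.608% fell. In that fit 2 imprinted genes rose, Asb4 (edgeR adjusted p = 0.0268) and Plagl1 (0.59 on the log2 scale, edgeR adjusted p = 0.0491). Peg3 fell by 0.64 (edgeR adjusted p = 0.0318). Peg3 was also the 1 imprinted gene called among cultures, or 5% beside 8.21% of all genes tested. It was highest in culture 1 at 221 CPM against 115 to 124 (edgeR adjusted p = 0.0246).

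For each gene, those most like it were found by the correlation of log2 CPM over the 8 libraries, given as a description: the libraries share 4 cultures and 2 fractions, and 9608 or 9609 genes were compared each time. For Mdm2 the nearest were Abcc9 (r = 0.982), Lbp (0.978) and Rgs5 (0.977), for Cdkn1a Galnt2 (0.985), Btg1 (0.963) and Phc2 (0.959), and for Cdkn1b Txnip (0.962), Tmem115 (0.951) and Snx17 (0.949). Those of Cdkn1c were Trim11 (0.980), Aplp2 (0.978) and Tjp1 (0.966), those of Cdkn2a Ppp1r9b (0.980), Gtf3c5 (0.941) and Vps72 (0.941), those of Cdkn2b Polr3g (0.971), Csk (0.969) and Adgra2 (0.963), and those of Cdkn2c Srp9 (0.994), Ndfip1 (0.984) and Tspan13 (0.984).

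The nearest genes of Mdm2 included 2 of the 8 markers listed for smooth muscle and pericytes. Abcc9 averaged 81.6, 45.4, 67.4 and 266 CPM in cultures 1 to 4 (edgeR adjusted p = 0.00115), and Rgs5 10.01, 8.96, 9.05 and 47.3 (edgeR adjusted p = 0.00220). Kcnj8, also of that list and named after its values were seen, averaged 6.30, 3.07, 4.44 and 17.4 (edgeR adjusted p = 0.00428). Abcc9 and Rgs5 were picked by their correlation with Mdm2 over these libraries, so their high level in culture 4 follows from the choice. All 8 markers of the smooth muscle and pericyte list were tested and 5 passed among cultures, where 8.21% of all genes did. However, only 3 were highest in culture 4 and 5 in culture 2, where Acta2 averaged 4571 CPM against 2145 to 2863. Their summed share of the counts was 0.489% to 0.897% in 2n and 0.400% to 0.770% in 4n, and averaged 0.570% in culture 4 and 0.833% in culture 2.

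Other markers also stood highest in culture 4 beside Mdm2 and Cdkn1a. All 7 endothelial markers tested did, with a summed share of 0.0375% in the 4n library of culture 4 and 0.00360% to 0.00864% elsewhere. Of the 7 mesothelial markers, 5 were highest in culture 4, but their summed share averaged 0.0136% in culture 1 and 0.0122% in culture 4. Macrophage markers were at 0.000343% to 0.00185% of the counts in all libraries. The part of these cell types in the values of Mdm2 and Cdkn1a was not tested.

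**Figure D5:**
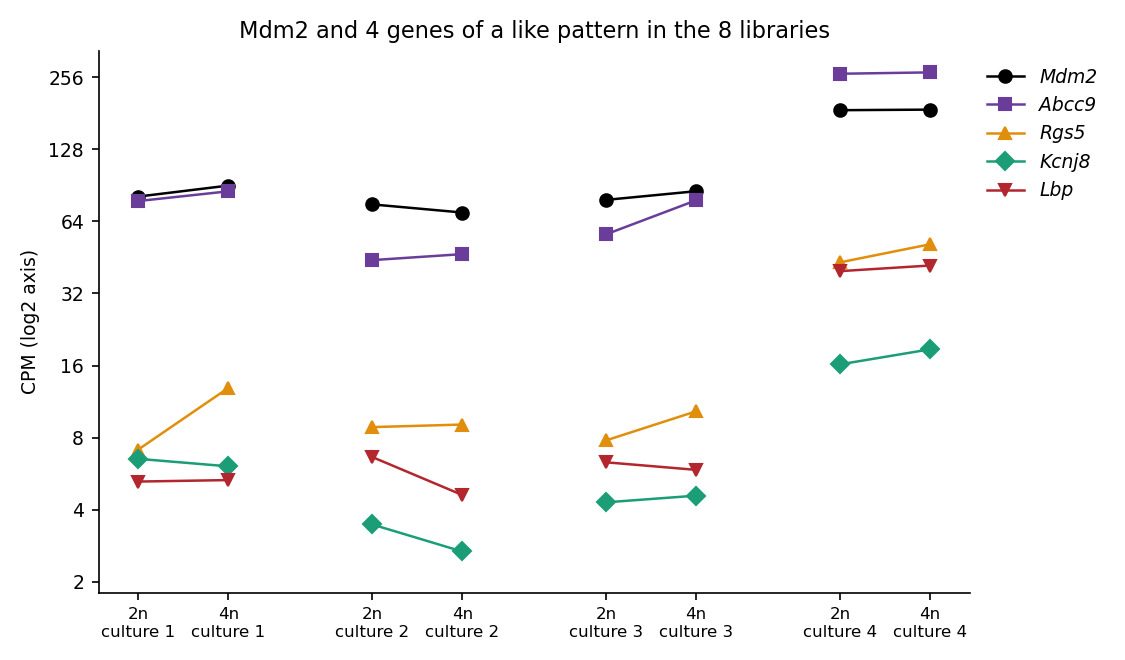
CPM (log2 axis) of Mdm2, its 3 nearest genes Abcc9, Lbp and Rgs5, and the marker Kcnj8 in the 8 libraries, grouped by culture with a line joining 2n and 4n. All 5 are highest in both libraries of culture 4, where Mdm2 has 186 and 187 CPM. The 3 nearest genes were picked by their correlation with Mdm2 over these libraries, and Kcnj8 after its values were seen. Their likeness to Mdm2 therefore follows from the choice.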

How the data were processed

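RNA was sequenced in 8 libraries, 4 per fraction, labelled Rattus rattus. The authors deposited raw counts per gene and FPKM. Reads were aligned with HISAT2 2.0.4 to Rnor_6.0, per the submitters' processing notes. The counting tool, its strand setting and the annotation were not given in the sources used here. In the deposited table the FPKM were counts divided by a constant of the gene and by the library total, within 0.1% for 17003 of 17003 genes checked.

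The counts were fitted with edgeR 4.0.16 (R 4.3.3; TMM scaling, filterByExpr, robust quasi-likelihood test, 12983 of 30957 genes tested, Benjamini-Hochberg adjustment over all of them, threshold 0.05), for 4n against 2n without pairing and paired by replicate number, and for the 4 cultures with the fraction as a term. The scripts were tested on simulated data. CPM are TMM-scaled. limma 3.58.1, DESeq2 1.42.0, other scalings, no filter, and limma on log2(FPKM + 0.1) were alternatives. DESeq2 and limma-voom with the block, and FPKM for the cultures, were added after seeing the data.

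Deviations of same-numbered libraries from their group means correlated (r = 0.43, 0.58, 0.27 and 0.65 for numbers 1 to 4), and the best match of every library in the other fraction had the same number. The labels do not state the pairing, but the description codes of a number begin alike in both fractions. Nothing says that replicates came from separate litters, so p-values rest on the spread among these libraries. In the paired fit and the tests among cultures, that spread is how the 4n-to-2n difference varied between cultures. Each culture had 1 library of each fraction, and no culture was repeated within a fraction. Chi-square per degree of freedom between libraries of a group was 34.9 to 396, so none was a duplicate. With 14783521 to 21033772 counts a library, the scarcest gene, Cdkn2a, had 17 to 64 counts.

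The 7 genes are always named. Of each list, up to 4 genes past the threshold with the smallest p were to be named, or where fewer than 2 pass, the 2 with the smallest p. For some lists and comparisons where fewer than 2 passed, fewer or none of these are named. For each of the 7, the 3 genes with the highest correlation and at least 5 CPM are named. The members and lists were chosen with earlier results of these data known.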

Additional observations from a re-analysis of the deposited data

Results flagged for a closer look

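In the 2n fraction, the library of culture 4 stood apart from the other 3 for both Cdkn1a and Mdm2. For Cdkn1a it had 157 CPM against 65.5 to 72.3, a gap to the next library of 0.927 of the whole range, above the critical value of Dixon's test for 4 samples. For Mdm2 it had 186 CPM against 75.3 to 81.2, a gap of 0.947 of the range. In 4n the same culture was also highest, with gaps of 0.636 for Cdkn1a and 0.825 for Mdm2, below the critical value. Of 14 groups of 4 libraries looked at, 2 had such a library, and chance gives about 1 in 20. It was the same library for both genes, which correlated at r = 0.92 over the 8 libraries. The 14 groups share these libraries and are not independent, so the count cannot be set against that rate.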

How the results depend on the processing

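With the replicate block, 554 genes were higher and 79 lower in 4n, against 347 and 1 without it, and no call of the 7 genes changed. Genes higher in 4n numbered 860 with DESeq2, 0 with limma-voom (1460 at an unadjusted p under 0.05), 1278 with DESeq2 and the replicate block, 980 with limma-voom and the replicate block, and 0 to 1254 with a library or pair left out. Genes lower numbered 93, 0 (694 unadjusted), 596 and 162 under the same tools, 12 with total count scaling, 2 without mitochondrial chromosome genes, 14 on log2 FPKM, and 0 to 399 with a library or pair left out. Higher calls were 99.7% of calls in edgeR, 87.5% with the block and 68.2% with DESeq2 and the block. Of the 7 genes, 0 to 1 was called between fractions with a library or pair left out, the 1 being Cdkn2c without the 4n library or the pair of culture 1. Genes called among cultures numbered 1914 with total count scaling, 2436 with DESeq2, 115 with no term for the fraction, and from 64 without culture 4 to 2520 without culture 3, against 1066. Of the 7 genes, 1 was called with no term for the fraction (Mdm2; Cdkn1a had an adjusted p of 0.115 and Cdkn1b of 0.205 in edgeR), and 0 to 4 with a culture left out, against 3. Calls of these genes between pairs of cultures numbered 6, 12 with DESeq2, and 0 to 8 with a culture left out. Changes of sign occurred in 4n against 2n: Cdkn1b was at -0.031 with total count scaling, and Mdm2 at -0.20 with it and -0.20 on log2 FPKM, where the median of all genes was at -0.25 and -0.26. With 1 library left out of the unpaired fit, Cdkn1a ranged from -0.053 to 0.84, Cdkn2a from -0.37 to 0.029, Mdm2 from -0.37 to 0.46 and Cdkn2b from -1.03 to -0.15. With a whole pair left out of the paired fit, they ranged from 0.22 to 0.54, from -0.36 to 0.061, from -0.015 to 0.092 and from -0.98 to -0.26. The cause of these changes was not tested. Of 319 values for single genes, 285 kept direction and side of the threshold, 14 came to pass, 9 no longer passed and 11 changed sign. These include log2 ranges among cultures, which cannot change sign. They also include values of 4n against 2n, none of which passed in the main fit, so that keeping their side means not passing. Counts of 17 to 164 limit what can be seen for Cdkn2a, Cdkn2c and Cdkn1c.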
